A study of Mus musculus with 7 samples.

Results

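The insulin-like growth factor (IGF) system comprises 10 genes here: the ligands *Igf1* and *Igf2*, the receptors *Igf1r* and *Igf2r*, and the binding proteins *Igfbp2* to *Igfbp7*. They were found by Ensembl identifier among the 56748 genes counted in muscle stem cells (MuSCs), and all 10 were present in the count files. The comparison is between 3 WT libraries and 4 libraries from mice homozygous for *Jag2sm*, a hypomorphic allele of the NOTCH ligand gene *Jag2* that carries a missense change in an EGF repeat. The sample titles call these samples *Jag2sm*, whereas their genotype label reads *Jag2-/-*. MuSCs came from hind limb muscles of adult mice whose ages the sources used here do not give. Cells carrying endothelial (CD31), blood (CD45) or Sca1 surface markers were removed before those with integrin α7 were selected with magnetic beads. The authors' general culture methods grow such cells on collagen in serum with bFGF, and their sequencing methods do not restate this. RNA of each sample was read as direct cDNA on a nanopore instrument. The labels also give each library a batch number equal to its replicate number, so that batches 1 to 3 hold 1 library of each genotype and batch 4 holds *Jag2sm* replicate 4 alone, and what a batch stands for is not given. The sources do not say whether the libraries of a genotype came from separate animals or cultures, so p-values measure the spread between these libraries, which may be technical.

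IGF1 and IGF2 are secreted growth factors that act on the IGF1 receptor, a tyrosine kinase that passes the signal to AKT and to ERK. The IGF2 receptor, which is also the cation-independent mannose-6-phosphate receptor, takes IGF2 up for degradation in lysosomes and does not itself signal through a kinase. The binding proteins hold IGFs outside the cell and, depending on the protein and on its cleavage, withhold or deliver them. In muscle, IGF2 made by differentiating myoblasts is a known autocrine signal for further differentiation.

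In *Jag2sm* MuSCs, the RNA of 3 of the 10 genes was lower than in WT and that of none was called higher. These were *Igf2*, at 4.58-fold lower, *Igf2r*, at 2.25-fold lower, and *Igfbp4*, at 10.1-fold lower. Among all 9489 genes with enough counts to be tested, 4.84% were called lower and 1.42% higher, at an adjusted p under 0.05 in edgeR's quasi-likelihood test. Of the 10 genes, 9 were tested and *Igf1* was not, and 4 of the 9 had an estimated change above 0 and 5 below it. The 3 lowered genes were also those in which the genotypes did not overlap, with every *Jag2sm* library below every WT library. Over all genes tested, 22.5% did not overlap, 12.2% with *Jag2sm* below WT and 10.3% with *Jag2sm* above. In bulk RNA, fewer cells of a type and less RNA per cell cannot be told apart.

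The promoter sequences of the 3 lowered genes are shown because these were the IGF genes called, and because myogenic factors and the NOTCH effector RBPJ are known to bind short motifs. Each is the 250 bases before a RefSeq start site, written 5′ to 3′ on the gene's strand and placed on GRCm39 by exact match of the RefSeq GRCm38.p6 window. Capitals mark CANNTG, the E-box bound by MYOD and MYOG among other factors. The *Igf2* window, at chr7:142211234-142211483 on the minus strand, precedes 1 of several start sites of this gene.

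Igf2: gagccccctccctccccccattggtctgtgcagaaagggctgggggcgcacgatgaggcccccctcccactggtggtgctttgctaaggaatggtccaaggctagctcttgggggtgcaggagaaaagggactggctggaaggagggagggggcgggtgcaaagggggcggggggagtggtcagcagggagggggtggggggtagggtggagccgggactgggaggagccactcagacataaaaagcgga

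The *Igf2r* window lies at chr17:12988594-12988843 on the minus strand, and its last bases fall within the annotated first exon.

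Igf2r: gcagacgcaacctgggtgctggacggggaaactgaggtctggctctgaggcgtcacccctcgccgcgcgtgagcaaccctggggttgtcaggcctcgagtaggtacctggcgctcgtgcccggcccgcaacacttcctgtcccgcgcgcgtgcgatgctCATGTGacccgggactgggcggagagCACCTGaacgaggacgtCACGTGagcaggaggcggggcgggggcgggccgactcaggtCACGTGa

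The *Igfbp4* window lies at chr11:98931820-98932069 on the plus strand, and its last bases likewise reach into the annotated first exon.

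Igfbp4: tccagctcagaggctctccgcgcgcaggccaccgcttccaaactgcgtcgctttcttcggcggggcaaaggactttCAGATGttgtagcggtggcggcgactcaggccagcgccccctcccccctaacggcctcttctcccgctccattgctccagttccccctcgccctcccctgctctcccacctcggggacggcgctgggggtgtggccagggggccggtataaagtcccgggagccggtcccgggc

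The *Igf2r* window held 4 CANNTG matches, the *Igfbp4* window 1 and this *Igf2* window 0. A CANNTG match is common, since 66.2% of 32851 RefSeq windows of this length hold one. None of the 3 windows held CAGCTG, a form of CANNTG found in 13.0% of windows, or TGGGAA, the core of the RBPJ motif, found in 21.6% when both strands were read. Over the 14 windows of the 10 genes, 8 genes had a window with CANNTG, 1 with CAGCTG and 2 with TGGGAA. *Igf2* was among those with CANNTG and among those with TGGGAA through other windows of its 4, since the window before the start site at 142220553 held 2 CANNTG and 1 TGGGAA and the window before that at 142215008 held 2 TGGGAA. Such a match describes letters only and was not tested for binding. Counts per gene do not tell which start site of *Igf2* was in use.

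The targeted gene and the depth were examined first. The mean level of *Jag2* was 103 ± 19.7 (SD, n = 3) for WT libraries and 67.6 ± 17.1 (SD, n = 4) for *Jag2sm* libraries in CPM, the count scaled to a common library size with edgeR's TMM factors. Its log2 fold change was -0.64 with an adjusted p of 0.166 in edgeR, so it was not called, although the genotypes did not overlap. Between 187834 and 1937581 reads per library fell on genes, the lowest number in WT replicate 1, where 3 counts make 17.3 CPM against 1.48 to 4.24 CPM in the other libraries. That library also had 45.1% of its aligned reads outside genes, where the others had 20.8% to 25.7%. Unaligned reads made up 2.44% to 3.24% of WT libraries and 3.07% of *Jag2sm* replicate 3, and 46.0% to 50.8% of the other 3 *Jag2sm* libraries.

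*Pax7* and *Myod1*, which mark muscle stem cells and myoblasts, were present in every library. *Pax7* was read at 28.8 to 95.7 CPM in WT and 100 to 172 CPM in *Jag2sm*. It was thus above WT in every *Jag2sm* library but not called (log2 fold change 0.80, adjusted p = 0.174 in edgeR). *Myod1* was read at 697 to 830 CPM in WT and 615 to 806 CPM in *Jag2sm*. Of the 10 muscle stem cell markers 9 were tested, 0 were called higher and 1, *Des*, lower, with 4 estimates above 0 and 5 below. Of the 10 fibro-adipogenic markers 1 was tested and 0 were called, and their summed level was 0 to 18.1 CPM in WT and 6.90 to 56.6 CPM in *Jag2sm* libraries. *Cd34* reached 28.5 CPM and *Smoc2*, at 0 in WT, 25.5 CPM in *Jag2sm* replicate 1, while *Pdgfra* had 0 to 2 counts per library and *Lum* had 0 in all 7. Of the 10 endothelial markers 0 were tested, with sums of 4.74 to 11.5 CPM in WT and 7.88 to 17.0 CPM in *Jag2sm*, and *Pecam1* had 0 to 7 counts and *Kdr* 0 throughout. Of the 8 immune markers 1 was tested and 0 were called, with sums of 5.76 to 27.1 CPM in WT and 5.42 to 18.4 CPM in *Jag2sm*, and *Laptm5* reached 22.6 CPM in WT replicate 2, while *Ptprc* and *Tyrobp* had 0 throughout. The part of these markers in the IGF results was not tested.

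Genes of muscle differentiation were lower in *Jag2sm* MuSCs in 13 of 13 tested, with a median log2 fold change of -3.30, and *Myog*, the transcription factor that starts the differentiation program, fell by 2.33 on the log2 scale (adjusted p = 0.0300 in edgeR). Their summed level was 17313 to 36010 CPM in WT and 776 to 4582 CPM in *Jag2sm* libraries. All 13 were called, and this number was 12 with the batch as a block. It was 11 without WT replicate 2 or 3 and 10 without *Jag2sm* replicate 2. The differentiation genes were thus lower in *Jag2sm*, as *Igf2*, *Igf2r* and *Igfbp4* were, and their part in those results was not tested.

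**Figure D1:**
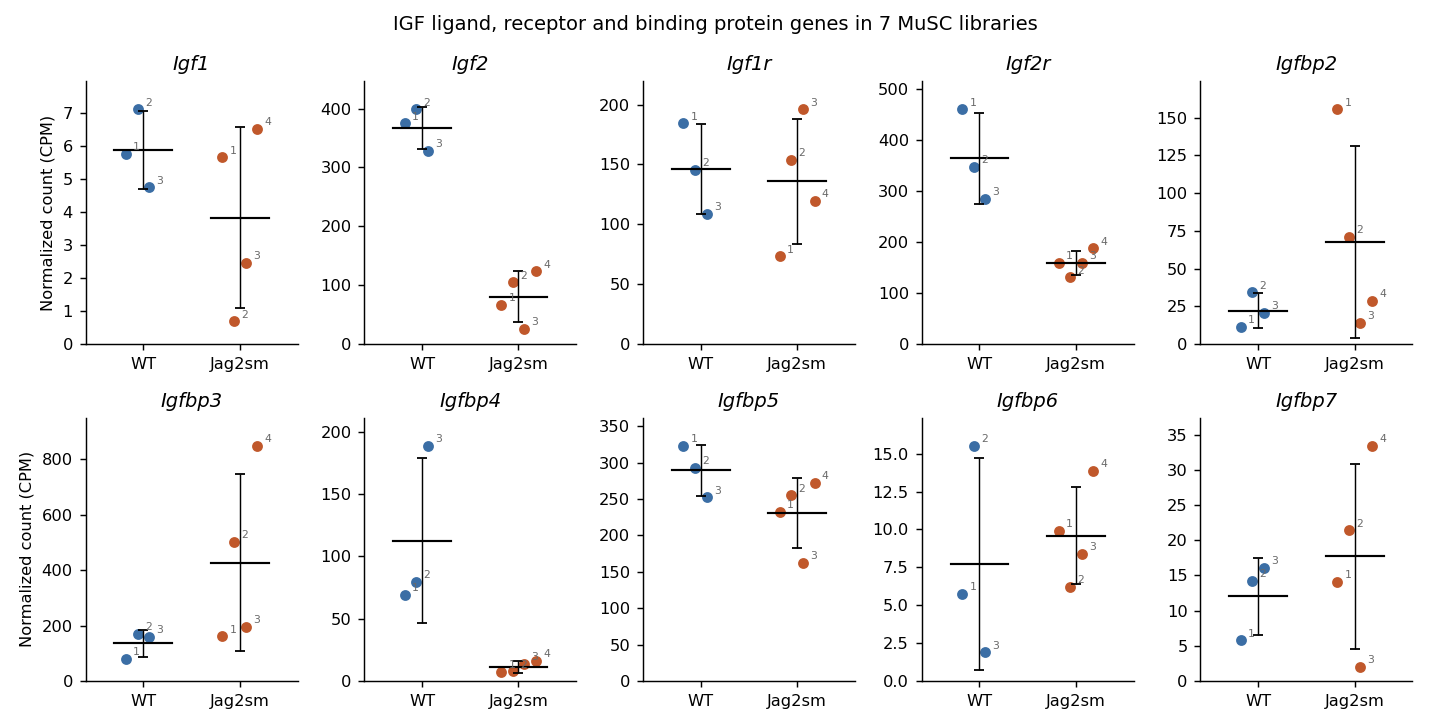
Normalized counts (CPM, vertical axis from 0) of the 10 IGF genes in 3 WT and 4 *Jag2sm* libraries. Points are libraries marked with their replicate number, long bars are means and whiskers are SDs. *Igf2*, *Igf2r* and *Igfbp4* are the panels in which all *Jag2sm* points lie below all WT points.

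*Igf2* lies on GRCm39 at chr7:142204503-142220694 on the minus strand. It was read at 375, 399 and 328 CPM in WT replicates 1, 2 and 3. In *Jag2sm* replicates 1 to 4 it was read at 66.5, 105, 26.1 and 124 CPM. The highest *Jag2sm* library was thus far below the lowest WT library, and the *Jag2sm* libraries varied more among themselves in proportion to their mean. Means were 367 ± 35.9 (SD, n = 3) for WT and 80.4 ± 43.4 (SD, n = 4) for *Jag2sm*, and the log2 fold change was -2.19 (SE 0.417, 95% interval -3.11 to -1.27, adjusted p = 0.0128 in edgeR). An exact two-sided permutation test of its log2 CPM gave p = 0.0286, the smallest that 3 libraries against 4 allow. Within batches 1 to 3, the difference in its log2 CPM was -2.47, -1.91 and -3.57.

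The *Igf2* call was lost when both libraries numbered 1, the shallowest of each genotype, were left out, with a log2 fold change of -2.13 and an adjusted p of 0.0593 in edgeR. *Jag2sm* replicate 3, whose share of unaligned reads was like that of WT, had the lowest *Igf2* of all libraries. It also had the lowest *Myog*, at 110.4 CPM, while *Jag2sm* replicate 4 had the highest *Igf2* and the highest *Myog* (906 CPM) of the *Jag2sm* libraries. The strand setting of the counting is not given in the sources used here, so reads of overlapping genes cannot be set apart. Exons of *Gm33148* and *Igf2os* lie across from those of *Igf2*, with 2 and 10 counts in all libraries together, and *Gm49394* on the same strand had 0.

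*Igf1*, the other ligand, was scarce. Its counts summed to 17 over WT and 18 over *Jag2sm* libraries, too few to enter the test. Its levels were 5.76, 7.11 and 4.74 CPM in WT and 5.66, 0.691, 2.46 and 6.52 CPM in *Jag2sm*. The genotypes overlapped, and the exact permutation test gave p = 0.314. A difference of this ligand between genotypes was not detectable at this depth.

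*Igf2r* lies at chr17:12901293-12988614 on the minus strand and overlaps no exon of another annotated gene. Its levels were 461, 348 and 285 CPM in WT replicates 1 to 3 and 159.8, 131, 160.1 and 188 CPM in *Jag2sm* replicates 1 to 4. The *Jag2sm* libraries lay close together and all below WT, at 159.9 ± 23.3 CPM (SD, n = 4) against 365 ± 89.1 CPM (SD, n = 3). On the log2 scale the fold change was -1.17 (SE 0.230, 95% interval -1.68 to -0.66, adjusted p = 0.0146 in edgeR; exact permutation p = 0.0286, the smallest possible). The call was lost without WT replicate 2 (adjusted p = 0.0538 in edgeR) and without *Jag2sm* replicate 2 (adjusted p = 0.0677), with log2 fold changes of -1.18 and -1.08. Within batches 1 to 3, *Igf2r* in *Jag2sm* was lower by differences of -1.52, -1.39 and -0.83 in log2 CPM.

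*Igf1r*, which encodes the signaling receptor, did not pass the test. Its levels of 184, 145 and 109 CPM in WT lay among the 73.5, 154, 196 and 119.8 CPM of *Jag2sm*. The log2 fold change was -0.05 with a 95% interval of -0.76 to 0.67 (adjusted p = 0.973 in edgeR), so changes of up to about the size of that interval in either direction were not resolved. Within batches 1 to 3, its log2 CPM differed by -1.31, 0.08 and 0.84, so the batches did not share a direction. Its sign turned to positive when libraries were scaled by size alone (0.11) and with both libraries numbered 1 left out (0.30).

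**Figure D2:**
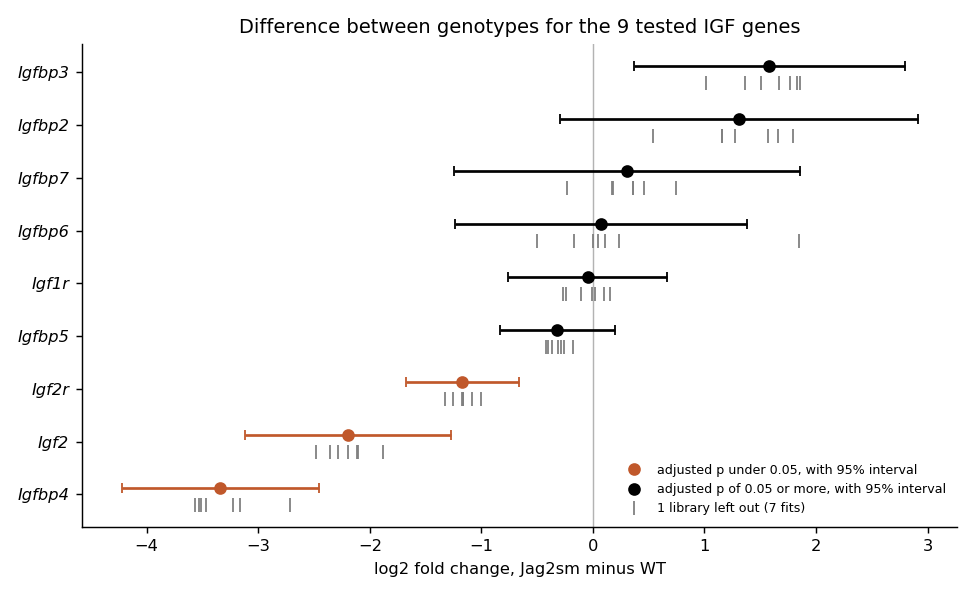
Log2 fold change of each tested IGF gene, *Jag2sm* minus WT (horizontal axis), from edgeR. Points with bars are estimates with 95% intervals, in color at an adjusted p under 0.05, and gray ticks are the estimates with each of the 7 libraries left out. *Igfbp4*, *Igf2* and *Igf2r* stay below 0 throughout, while *Igf1r*, *Igfbp6* and *Igfbp7* have ticks on both sides of 0.

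Among the binding proteins, *Igfbp4* showed the largest change of the 9 tested IGF genes. The gene lies at chr11:98932064-98945218 on the plus strand, its protein is a substrate of the protease PAPP-A, and its exons overlap no other gene. Its levels were 69.2, 79.5 and 189 CPM in WT and 7.07, 7.60, 13.8 and 16.3 CPM in *Jag2sm*. Every *Jag2sm* library was below the lowest WT library, and WT replicate 3 was more than the sum of the other WT libraries. Its log2 fold change was -3.34 (SE 0.400, 95% interval -4.22 to -2.46, adjusted p = 0.00254 in edgeR; exact permutation p = 0.0286, the smallest possible). With each library left out in turn it stayed between -3.57 and -2.72, with adjusted p of 0.00253 to 0.0159 in edgeR. Its differences in log2 CPM within batches 1 to 3 were -3.01, -3.12 and -3.62. The *Jag2sm* counts behind it were small, at 5, 11, 28 and 20.

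*Igfbp3*, the main IGF carrier in serum, was read at 80.7, 169 and 159 CPM in WT and at 161, 503, 195 and 849 CPM in *Jag2sm* MuSCs. *Jag2sm* replicates 2 and 4 were well above WT, replicate 3 was slightly above, and replicate 1 lay within the WT range. An estimate of 1.58 was obtained for the log2 fold change, with a 95% interval of 0.36 to 2.80, and its adjusted p of 0.129 in edgeR did not pass the threshold. Within batches 1 to 3 its differences in log2 CPM were 0.98, 1.56 and 0.29. DESeq2 did call it, at 1.65 with an adjusted p of 0.0397. Its exons overlap those of Gm73927 and Gm36565 on the opposite strand.

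*Igfbp2* was read at 11.5, 34.3 and 20.9 CPM in WT and at 156, 71.2, 14.3 and 28.5 CPM in *Jag2sm*. *Jag2sm* replicates 1 and 2 were above all WT libraries and the other two were not, so the genotypes overlapped. The log2 fold change was 1.31 (95% interval -0.30 to 2.91, adjusted p = 0.356 in edgeR), and it was 0.54 at its lowest with a library left out. Within batch 3 its direction was the opposite of that within batches 1 and 2. *Jag2sm* replicate 1, the highest in *Igfbp2*, was also the highest in the mural cell marker *Rgs5*, which was read at 11.5, 12.9 and 14.2 CPM in WT and at 645, 29.7, 40.4 and 25.3 CPM in *Jag2sm*. *Rgs5* was thus above WT in every *Jag2sm* library, although its log2 fold change of 3.73 was not called (adjusted p = 0.135 in edgeR). Of the 8 mural markers, 4 were tested, 0 were called higher and 1, *Abcc9*, lower, and their summed level was 1066 to 1962 CPM in WT and 867 to 2336 CPM in *Jag2sm*. Most of that sum was *Acta2*, at 980 to 1902 CPM in WT and 798 to 2254 CPM in *Jag2sm*. In *Jag2sm* replicate 1, *Pdgfrb*, *Abcc9*, *Kcnj8* and *Myh11* had 0 counts, *Cspg4* 1 and *Notch3* 29. The authors report that MuSCs themselves express *Notch3*. The part of the mural markers in the *Igfbp2* levels was not tested.

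*Igfbp5*, known to be made by differentiating myoblasts, was the most evenly read binding protein. It stood at 323, 293 and 252 CPM in WT and 232, 255, 163 and 272 CPM in *Jag2sm*. The ranges overlapped, with a log2 fold change of -0.32 (95% interval -0.83 to 0.20, adjusted p = 0.499 in edgeR). *Igfbp6*, whose protein prefers IGF2 over IGF1, ranged from 1.90 to 15.5 CPM in WT and from 6.22 to 13.9 CPM in *Jag2sm*. Its log2 fold change was 0.07 with an interval of -1.24 to 1.38. *Igfbp7*, whose protein binds IGFs weakly, ranged from 5.76 to 16.1 CPM in WT and from 1.97 to 33.4 CPM in *Jag2sm*, with a log2 fold change of 0.30 and an interval of -1.25 to 1.85. In WT replicate 1, *Igf1*, *Igfbp6* and *Igfbp7* each rested on 1 count, and the intervals of the latter pair leave changes of more than 2-fold in either direction unresolved.

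Levels of different genes were compared per kilobase of the canonical transcript. In WT MuSCs, *Igf2* ranked first at 99.0 ± 9.69 CPM per kb (SD, n = 3), and its range did not overlap that of *Igfbp3*, the next gene at 50.5 ± 18.0. *Igfbp5* at 48.2, *Igf2r* at 40.8, *Igfbp4* at 29.3, *Igfbp2* at 16.8, *Igf1r* at 11.7, *Igfbp6* at 6.34 and *Igfbp7* at 2.25 CPM per kb followed, and each overlapped the next in this order. *Igf1* came last at 0.830 CPM per kb, without overlap with *Igfbp7*. The order was headed by other genes in *Jag2sm* MuSCs. *Igfbp3* ranked first at 158 ± 119 CPM per kb (SD, n = 4), followed by *Igfbp2* at 51.0 ± 48.1 and *Igfbp5* at 38.4, with *Igf2* next at 21.7 and *Igf2r* after it at 17.9. *Igf1r* at 10.9, *Igfbp6* at 7.87, *Igfbp7* at 3.32 and *Igfbp4* at 2.92 CPM per kb came next, and *Igf1* was again last at 0.542. The place of *Igfbp2* rests on *Jag2sm* replicate 1, without which its mean was 28.8 CPM per kb. In WT, the mean of *Igfbp4* without replicate 3 was 19.4 and that of *Igfbp6* without replicate 2 was 3.14 CPM per kb. Among neighbors in the *Jag2sm* order, *Igfbp4* and *Igf1* alone did not overlap. Nanopore reads need not cover a whole transcript, so levels per kb depend on how far the reads reach. The order also depends on the division by length. In undivided CPM, *Igf2* and *Igf2r* were level in WT, with means of 367 and 365. In *Jag2sm* libraries, *Igfbp3* stayed first at 427 CPM. There *Igf2*, at 80.4 CPM, was below *Igf2r* (159.9 CPM) and *Igf1r* (136 CPM), and *Igfbp2* stood at 67.4 CPM.

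To place the fall of *Igf2* beside its receptors and binding proteins, the log2 ratio of *Igf2* to each other IGF gene was taken within each library, as the difference of their log2 CPM with a prior count of 2. Of the 9 ratios, 8 were lower in every *Jag2sm* library than in every WT library, and the exception was the ratio to *Igfbp4*. With a prior count of 0.5, and with none, there were 7, because the ratio to *Igf1* then also overlapped. Within batches 1 to 3, at the prior count of 2, the same 8 were lower and the ratio to *Igfbp4* higher in *Jag2sm* in each batch. Some of these differences were slight. In batch 2 the ratio to *Igf1* was 5.50 in WT and 5.47 in *Jag2sm*, and without a prior count it turned, at 5.81 and 7.25. In batch 3 the ratio to *Igfbp4* was 0.79 in WT and 0.84 in *Jag2sm*. *Igf2* alone already set the genotypes apart, so its ratio to a gene that changed little does so too. The count of 8 thus largely restates the fall of *Igf2*, and the same count over all tested genes was not taken. The ratios all share *Igf2* and are not independent of each other. Exact two-sided permutation p-values were adjusted over the 9 ratios, and 0 passed the threshold. The smallest adjusted value was 0.0514, reached by 5 ratios whose unadjusted p was the smallest possible, 0.0286.

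Against the binding proteins, the ratio of *Igf2* to *Igfbp3* was 2.19, 1.23 and 1.03 in WT and -1.26, -2.24, -2.82 and -2.76 in *Jag2sm* replicates 1 to 4, a difference of -3.75. This ratio, in CPM and not per length, was above 0 in every WT library and below 0 in every *Jag2sm* library. The ratio to *Igfbp5* was 0.21 to 0.44 in WT and -2.56 to -1.13 in *Jag2sm*, again on opposite sides of 0, with a difference of -2.03. Differences were -3.51 for *Igfbp2* (p = 0.0571, exact permutation), -2.87 for *Igfbp6* and -2.57 for *Igfbp7*. The ratio to *Igfbp4* did not separate the genotypes, at 2.41, 2.30 and 0.79 in WT and 2.96, 3.52, 0.84 and 2.80 in *Jag2sm* (difference 0.70, exact permutation p = 0.400).

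Against the receptors, the ratio of *Igf2* to *Igf1r* was 1.02, 1.44 and 1.57 in WT and -0.14, -0.55, -2.83 and 0.05 in *Jag2sm*. The difference was -2.21 (exact permutation p = 0.0286, adjusted p = 0.0514). The ratio to *Igf2r* was -0.30, 0.20 and 0.20 in WT and -1.24, -0.32, -2.54 and -0.60 in *Jag2sm*. It was lower in *Jag2sm* by 1.21 on average, but the nearest libraries of the genotypes were almost level, and the test did not separate the fall of *Igf2* from that of *Igf2r* (exact permutation p = 0.114). The ratio to *Igf1* differed by -1.77 (exact permutation p = 0.0571) and rests on the few *Igf1* counts and on the prior count. Without a prior count it was 6.02, 5.81 and 6.11 in WT and 3.55, 7.25, 3.41 and 4.25 in *Jag2sm* (difference -1.37, exact permutation p = 0.229), and *Jag2sm* replicate 2, with 1 *Igf1* count, was the highest of all.

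**Figure D3:**
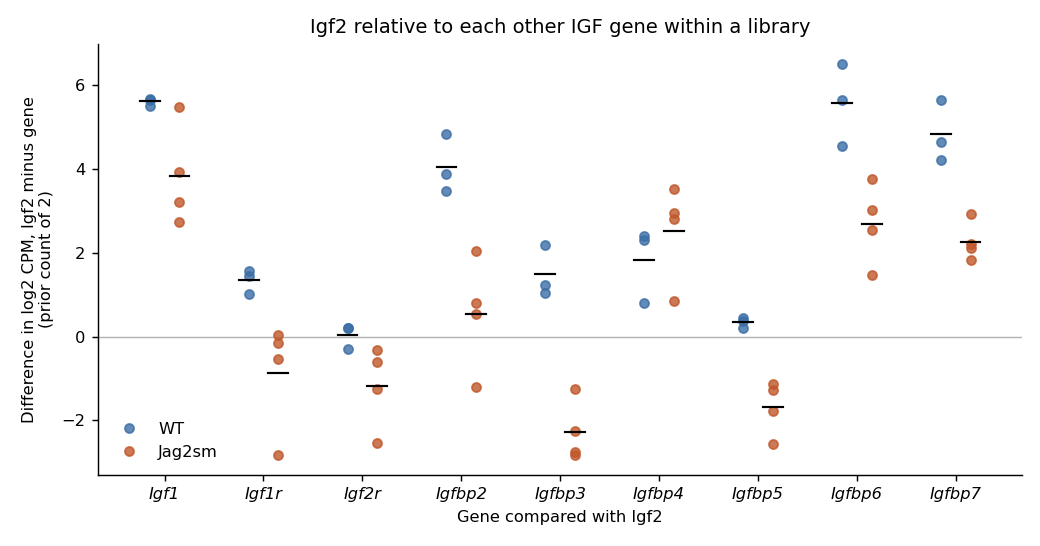
Log2 CPM of *Igf2* minus log2 CPM of each other IGF gene within a library, both with a prior count of 2 (vertical axis), with 3 WT and 4 *Jag2sm* libraries as points and group means as bars. CPM are not divided by transcript length. At this prior count the groups are apart in 8 of 9 ratios and overlap for *Igfbp4*.

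The make-up of the binding protein counts was described by the share of each gene in the sum of *Igfbp2* to *Igfbp7*, which does not depend on the scaling. *Igfbp4* held 14.0%, 13.1% and 29.5% of these counts in WT replicates 1 to 3. It held 1.22%, 0.879%, 3.49% and 1.34% in *Jag2sm* replicates 1 to 4. This was the one share of 6 in which the genotypes did not overlap (difference -17.1 percentage points, exact permutation p = 0.0286, adjusted over the 6 shares p = 0.171). Compared within batches 1 to 3, the shares of 3 genes differed in the same direction in each batch, lower for *Igfbp4* and higher for *Igfbp2* and *Igfbp3* in *Jag2sm*.

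*Igfbp5* held the largest mean share in WT, at 51.0% ± 13.0 (SD, n = 3), with 65.1%, 48.3% and 39.5% in replicates 1 to 3, and 33.3% ± 8.91 (SD, n = 4) in *Jag2sm*. *Igfbp3* held 23.1% ± 6.06 (SD, n = 3) in WT and 51.3% ± 17.8 (SD, n = 4) in *Jag2sm* MuSCs. Neither difference passed an exact permutation test (p = 0.143 and p = 0.0857). For *Igfbp3* the overlap came from *Jag2sm* replicate 1, in which it held 27.8% and *Igfbp2* 26.8%. For *Igfbp5* it came from *Jag2sm* replicates 1 and 3, at 40.0% and 41.1%, both above WT replicate 3. Summed over the 6 binding proteins, the level was 580.2 ± 75.1 (SD, n = 3) for WT and 763 ± 357 (SD, n = 4) for *Jag2sm* in CPM, which did not differ beyond the spread between libraries (exact permutation p = 0.486).

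**Figure D4:**
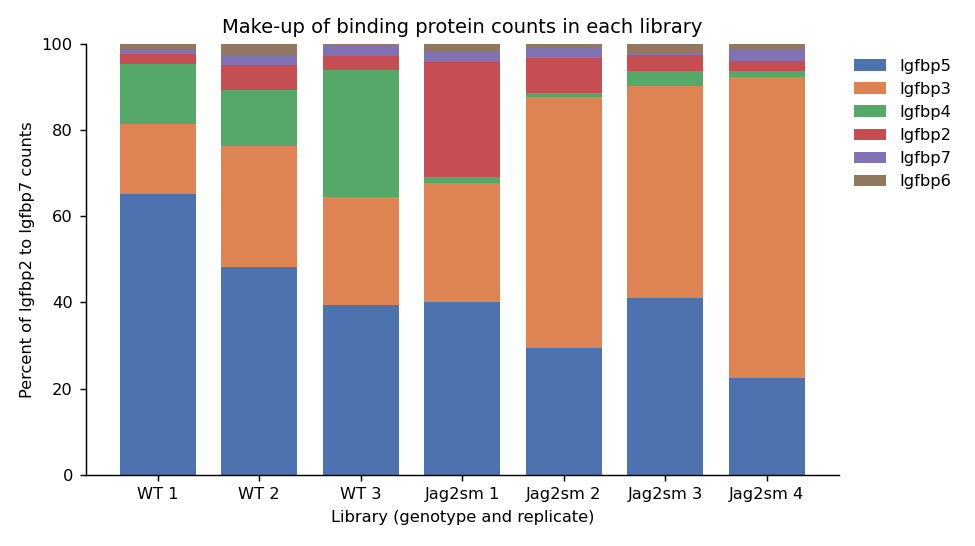
Percent of the summed counts of *Igfbp2* to *Igfbp7* held by each gene (stacked bars, vertical axis from 0 to 100) in each of the 7 libraries. The *Igfbp4* band is 13.1% to 29.5% in WT and 0.879% to 3.49% in *Jag2sm*, and the *Igfbp3* band is widest in *Jag2sm* replicates 2, 3 and 4.

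The rest of the pathway was read from 6 lists of 62 genes, covering IGF availability, insulin and its receptors, IGF2 mRNA binding, adaptors and PI3K, AKT with mTOR and FoxO, and RAS with ERK. Of these, 44 were tested, 1 was called lower and 0 higher in edgeR, against 6.26% of all genes tested. With the batch as a block 2 were called lower, *Akt2* and *Grb10*. At an unadjusted p under 0.05 there were 7, where 19.7% of all tested genes fell below that value. Their median log2 fold change was -0.20, beside 0.05 over all genes tested, with 29 estimates below 0 and 15 above.

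The one called gene was *Akt2*, which encodes a kinase of the insulin and IGF response that is prominent in muscle. It stood at 427, 171 and 188 CPM in WT and 70.7, 76.0, 84.3 and 91.3 CPM in *Jag2sm*. All *Jag2sm* libraries were below WT, and WT replicate 1 stood above the rest. The log2 fold change was -1.62 (SE 0.311, 95% interval -2.30 to -0.93, adjusted p = 0.0131 in edgeR), and the call was lost without *Jag2sm* replicate 2 (log2 fold change -1.60, adjusted p = 0.0524 in edgeR). The other AKT gene fixed for description, *Akt1*, had a log2 fold change of -0.13 with an interval of -0.58 to 0.33.

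*Grb10*, an adaptor that restrains signaling from the insulin and IGF1 receptors, had the lowest estimate of the 6 lists without passing the test. It was read at 329, 76.9 and 46.5 CPM in WT and 38.2, 14.5, 33.0 and 4.89 CPM in *Jag2sm*, so the genotypes did not overlap. Its estimate on the log2 scale was -2.48 (adjusted p = 0.0681 in edgeR) and -1.50 without WT replicate 1 (adjusted p = 0.168). It was called with the batch as a block, at -1.95 with an adjusted p of 0.0412 in edgeR, and by DESeq2, at -2.64 with an adjusted p of 0.00629. The insulin receptor gene *Insr* and the adaptors *Irs1* and *Irs2*, which link the receptors to PI3K, were not called, with log2 fold changes of -0.43, -0.23 and 0.20.

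Of the 10 genes of IGF availability, which carry IGFs in serum or cut and guard the binding proteins, 3 were tested and 0 were called. *Pappa*, the protease of IGFBP4, had 3 counts in all 7 libraries and *Igfbp1* had 2, so neither could be compared. *Stc2*, an inhibitor of that protease, had a log2 fold change of -0.50 (95% interval -1.51 to 0.50). *Igf2bp2*, which encodes a protein that binds *Igf2* mRNA, was at -0.07 (95% interval -0.57 to 0.44). Insulin transcripts *Ins1* and *Ins2* and the adaptor *Irs4* had 0 counts in every library, which allows up to 17.3 CPM in the shallowest and 1.48 CPM in the deepest, for counting error only.

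**Figure D5:**
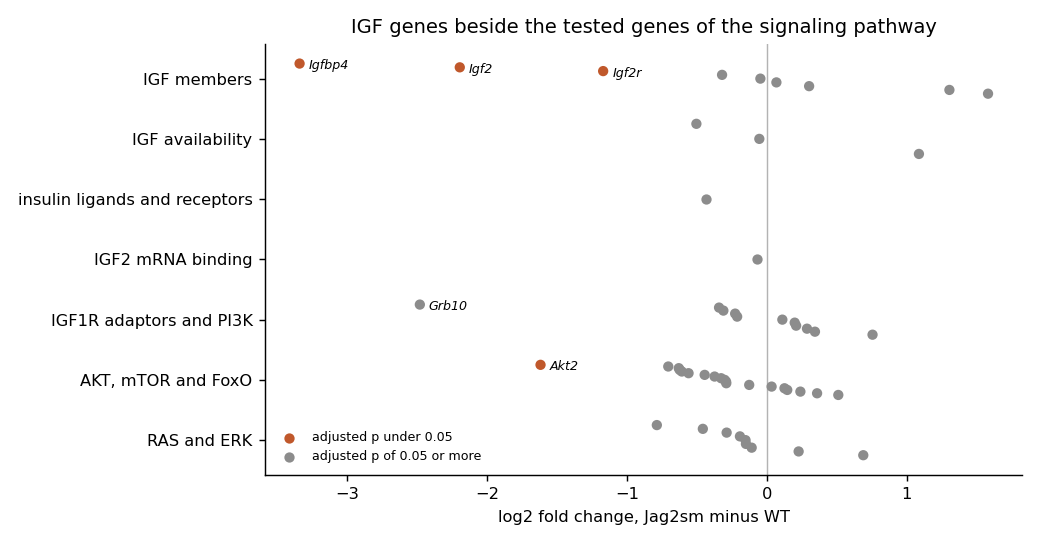
Log2 fold change, *Jag2sm* minus WT (horizontal axis), of the tested IGF genes and of the tested genes in 6 pathway lists (rows). Each point is a gene, in color at an adjusted p under 0.05 in edgeR. The called genes are *Igf2*, *Igf2r* and *Igfbp4* among the IGF genes and *Akt2* in the lists, and *Grb10* is named although it was not called.

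*H19*, the noncoding RNA that shares an imprinted domain with *Igf2*, was read at 4611, 5418 and 4765 CPM in WT and 1093, 2203, 1099 and 3138 CPM in *Jag2sm*. The genotypes did not overlap, and *Jag2sm* replicates 1 and 3 were the lowest in *H19* as they were in *Igf2*. Its log2 fold change of -1.39 did not pass the test (adjusted p = 0.0654 in edgeR), although it did with the batch as a block (-1.83, adjusted p = 0.0434 in edgeR), in DESeq2 (-1.35, adjusted p = 0.00850) and limma-voom (-1.53, adjusted p = 0.0399). Of the 9 genes listed around *Igf2*, 4 were tested and 1 was called lower, the fast troponin gene *Tnnt3*, which also stands in the list of muscle differentiation.

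The genes whose log2 CPM followed each lowered IGF gene most closely over the 7 libraries are given as a description. The points include the difference between genotypes. Each gene was also picked for the highest r among all genes tested, so a high r follows from the choice. For *Igf2* these were *Rnf217*, *Chi3l1* and *Dnajc4*, with Pearson r of 0.997, 0.986 and 0.984, and 0.986, 0.938 and 0.931 after the genotype means were removed. For *Igf2r* they were *Kif16b*, *Sema3b* and *Ano5* (0.997, 0.995 and 0.992), and for *Igfbp4* they were *Prdx3*, *Arhgap28* and *Gadd45a* (0.988, 0.984 and 0.980). After the genotype means were removed, r was 0.982, 0.964 and 0.940 for the *Igf2r* partners and 0.885, 0.907 and 0.977 for those of *Igfbp4*. The 3 lowered IGF genes shared none of these partners. Of the 9 partners, *Chi3l1*, *Rnf217*, *Sema3b*, *Ano5*, *Arhgap28* and *Gadd45a* were themselves called lower. Between the 3 IGF genes, r was 0.83 for *Igf2* with *Igf2r*, 0.80 for *Igf2* with *Igfbp4* and 0.84 for *Igf2r* with *Igfbp4*, over the same 7 libraries. Within *Jag2sm* the orders differed, since *Igf2* was lowest in replicate 3, *Igf2r* in replicate 2 and *Igfbp4* in replicate 1.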

How the data were processed

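The authors aligned nanopore direct cDNA reads to GRCm39 with minimap2 2.17 and deposited raw counts per gene from htseq, 1 file for each of 7 libraries. The annotation release and strand setting are not given in the sources used here. The authors' table of their own DESeq2 comparison holds a mean, fold changes and p-values and was not used. Reads on no gene or on several genes stayed out of library sizes.

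Counts were tested with edgeR 4.0.16 (R 4.3.3) by glmQLFit and glmQLFTest after filterByExpr (minimum count 10, minimum total 15) and TMM scaling, without covariates, with a threshold of 0.05 on p-values adjusted by Benjamini and Hochberg over all 9489 genes. The labels give WT and *Jag2sm* libraries of the same replicate number a shared batch number, so a fit with this number as a block was the paired alternative. The deviations of same-numbered libraries from their genotype means correlated at 0.0740, 0.0144 and 0.0539, and *Jag2sm* replicate 4, alone in its batch, adds nothing to the genotype difference under the block. CPM use TMM library sizes, and log2 CPM a prior count of 2. Single values were compared by exact two-sided permutation over 35 splits (NumPy 2.4.6). On simulated data for this comparison, with 9489 genes and 200 changed, edgeR recovered 77.3% of genes changed 4-fold and 14.3% of those changed 2-fold, and 6.67% of calls were false. A p that misses the threshold thus leaves changes of about 2-fold open, and some of 4-fold. Depths and the limit of 3 counts cover counting error only.

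The IGF genes, the lists and the alternatives were chosen with earlier results of these data known. Named are all 10 IGF genes, every called gene of the pathway lists, a fixed set of pathway, locus and marker genes, the 3 genes most like each lowered gene, and *Jag2*. Called in the marker lists, beside the differentiation genes, were *Des* (log2 fold change -1.63, not called with the block, adjusted p = 0.0596), *Abcc9* (-3.71) and *Scx* (-1.34). *Rgs5*, the mural markers named beside it and further markers named for their level at or near 0 were chosen after their values were seen. Of 56748 identifiers, 56017 were found in GENCODE M39, which gave positions, lengths and overlaps. Alternatives were DESeq2 1.42.0, limma-voom (limma 3.58.1), other scalings and filters, a replicate block, thinned counts, a prior count of 0.5 or none (the latter added after seeing the data), and each library left out.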

Additional observations from a re-analysis of the deposited data

Results flagged for a closer look

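Of 37 measures tested for a sample far from the rest of the 4 *Jag2sm* libraries, 2 stood out, and chance alone marks about 1 in 20. The share of binding protein counts held by *Igfbp7* was 0.498% in *Jag2sm* replicate 3 against 2.44% to 2.76% in the other 3, a gap of 0.860 of the whole range, above Dixon's critical value. It rests on 4 *Igfbp7* counts in that library. The percentage of reads that did not align was 3.07% in *Jag2sm* replicate 3 against 46.0% to 50.8% in the other 3, a gap of 0.898 of the range. In that same library *Igf2*, *Igf2r* and *Igfbp4*, at 26.1, 160.1 and 13.8 CPM, were each below every WT library. The part of alignment in any of these levels was not tested.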

How the results depend on the processing

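The genes called numbered 594 and became 1248 with no filter on low counts, 274 with at least 10 counts in every library, 272 in counts thinned to the smallest library and 251 to 616 with each library left out (251 without *Jag2sm* replicate 2, 341 without WT replicate 3 and 343 without WT replicate 2). Scaling by library size alone moved the median log2 fold change of all genes from 0.05 to 0.21 and the lower calls from 459 of 594 to 384 of 625, and without a filter they were 780 of 1248. Called IGF genes became 5 with no filter, when *Igfbp2* and *Igfbp3* were also called, and 2 to 3 with a library left out. The lost call was *Igf2r*, as given above. The log2 fold change of *Igf2* ran from -2.48 to -1.88 with a library left out (adjusted p 0.00367 to 0.0475 in edgeR) and that of *Igf2r* from -1.33 to -1.00. With both libraries numbered 1 left out, chosen after seeing the data, *Igf2* had an adjusted p of 0.0593 in edgeR (-2.13). Called pathway genes, 1 in the report, became 3 with DESeq2 and with no filter, 2 with limma-voom, with the block and with both libraries numbered 1 left out, and 0 to 2 with a library left out (0 without *Jag2sm* replicate 2). Shares without overlap, 1 in the report, became 2 with both libraries numbered 1 left out and 1 to 2 with a library left out. For the block, shares with the same direction in each of batches 1 to 3 were counted instead, and there were 3. Those of *Igfbp2* and *Igfbp3* overlapped over all libraries. The causes of these shifts were not tested, beyond the fewer genes tested under stricter filters and thinning (2981 and 3698).

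The direction of genes that were not called turned under some settings. *Igf1r* became 0.11 with library size alone, 0.0071 with no filter, 0.12 with at least 10 counts in every library, 0.11 in thinned counts and 0.30 with both libraries numbered 1 left out, and ran from -0.27 to 0.16 with a library left out. *Igfbp6* became -0.018 with both libraries numbered 1 left out (-0.50 to 1.84 with 1 left out). *Igfbp7* became -0.51 with limma-voom and -0.44 with the block (-0.23 to 0.74). The ratio of *Igf2* to *Igfbp4* became -0.017 in thinned counts. The share differences of *Igfbp6* and *Igfbp7* became -0.931 and -0.359 percentage points in thinned counts and -0.103 and -0.525 with both libraries numbered 1 left out, that of *Igfbp7* was -0.206 with the block, and they ran from -0.441 to 0.692 and from -0.392 to 0.546 with a library left out. With 3 against 3 or 2 against 4 libraries, exact permutation cannot go below 0.100 or 0.0667, so the ratios cannot pass there.

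With the batch, which equals the replicate number, as a block, 565 genes and the same 3 IGF genes were called (*Igf2* at -2.67, adjusted p = 0.00404 in edgeR, *Igf2r* at -1.25, adjusted p = 0.0388, and *Igfbp4* at -3.54, adjusted p = 0.000744). Beyond *Grb10*, *H19* and *Des*, the block changed no call of a gene named here, leaving aside *Acta2* and *Notch3*, which were not read under it. Depth limits *Igf1*, *Igfbp6* and *Igfbp7*, which had 1 count each in WT replicate 1.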
